A study of Mus musculus with 8 samples.

Results

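The genes described here encode the matrix metalloproteases (MMPs), the ADAMTS proteases, the protease-free ADAMTS-like (ADAMTSL) proteins and the tissue inhibitors of metalloproteases (TIMPs). They were chosen by symbol as the protein-coding genes of GENCODE M21 named Mmp with a number, Adamts or Timp1 to Timp4. The rule found 50 of the 32780 genes in the data, namely 22 MMP, 19 ADAMTS, 5 ADAMTSL and 4 TIMP genes. The study sequenced total RNA of the wild-type mouse embryonic stem cell line TC1 on 2 days, with 4 libraries each. Cells of day 0 were undifferentiated mouse embryonic stem cells, and cells of day 10 had been taken through 10 days of a differentiation protocol whose agents the labels do not name. Both came from the same line and were dissociated to single cells before RNA extraction. No other genotype, treatment or time was included, and the labels do not say if the 4 libraries per group were grown as separate cultures, so p-values measure only the spread between these libraries.

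MMPs are zinc-dependent proteases that are made as inactive precursors and cut collagens, other matrix proteins and cell surface proteins once their propeptide is removed. ADAMTS proteases share that chemistry and carry thrombospondin repeats that bind them to the matrix, where they trim procollagens and cut the large proteoglycans aggrecan and versican. ADAMTSL proteins keep the repeats without the protease domain and bind fibrillin microfibrils. TIMPs block the active site of MMPs, and Timp3 also blocks several ADAMTS and ADAM proteases. Embryonic tissues use these enzymes when cells leave an epithelium and lay down or remodel mesenchymal matrix.

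A cluster of MMP genes on chromosome 9 was nearly silent on both days, while most other members were expressed at day 10, so the promoters of both kinds are shown first. RefSeq gives the order of the cluster as Mmp13, Mmp12, Mmp1b, Mmp3, Mmp1a, Mmp10, Mmp8, Mmp27, Mmp20 and Mmp7, with no other protein-coding gene between them (assembly GRCm38.p6). Mmp1a is annotated in GENCODE M21 as a polymorphic pseudogene and is not among the 50 genes. RefSeq promoters were matched for 35 of the 50 members, as 38 entries, and were read over the 250 bases before the start. Every cluster member was matched, so all members without a promoter lie outside the cluster, among them Mmp2, Mmp9, Mmp16 and Adamts5. The 100 bases nearest to the start are shown for 3 genes of the cluster, Mmp13 (chr9:7272414-7272513, plus strand), Mmp3 (chr9:7445722-7445821, plus strand) and Mmp10 (chr9:7502242-7502341, plus strand). Capitals mark the AP-1 motif TGANTCA, the recognition sequence of Fos and Jun dimers, which reads the same on both strands.
Mmp13: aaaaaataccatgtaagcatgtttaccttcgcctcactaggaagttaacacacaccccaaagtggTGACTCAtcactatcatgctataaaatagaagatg
Mmp3: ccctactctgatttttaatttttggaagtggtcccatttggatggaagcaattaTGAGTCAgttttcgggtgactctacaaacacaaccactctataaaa
Mmp10: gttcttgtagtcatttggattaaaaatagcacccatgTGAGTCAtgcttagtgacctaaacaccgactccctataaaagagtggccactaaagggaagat

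The same window is shown for 4 members outside the cluster, with CpG dinucleotides in capitals. Mmp14 (chr14:54431498-54431597, plus strand) was among the highest members on both days, Adamts1 (chr16:85803114-85803213, minus strand) and Adamts3 (chr5:89883335-89883434, minus strand) rose, and Adamts14 (chr10:61273420-61273519, minus strand) fell.
Mmp14: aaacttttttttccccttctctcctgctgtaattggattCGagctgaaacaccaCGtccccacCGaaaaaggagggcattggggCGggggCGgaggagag
Adamts1: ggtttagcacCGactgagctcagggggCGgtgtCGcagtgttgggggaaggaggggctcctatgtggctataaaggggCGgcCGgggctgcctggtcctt
Adamts3: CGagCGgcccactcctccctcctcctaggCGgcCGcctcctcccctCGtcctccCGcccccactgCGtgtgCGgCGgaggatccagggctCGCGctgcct
Adamts14: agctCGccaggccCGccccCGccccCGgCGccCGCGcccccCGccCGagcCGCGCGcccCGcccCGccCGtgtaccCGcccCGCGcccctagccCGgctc

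Most windows of the cluster held fewer CpG than most of those of the other members. Over the 250 bases, the 11 promoters of the 9 cluster genes held a median of 1 CpG (0 to 7), the 27 promoters of 26 other members a median of 15 (1 to 39), and all 32851 promoters of the table a median of 6. Among the other members, Adamts13 and Mmp21 with 1 CpG and Timp4 with 2 were as low as the cluster, and none of these 3 had enough counts to be tested. Mmp24 with 33 CpG and Mmp25 with 17 were also at a low level at day 10, and a relation of CpG to level was not tested. The AP-1 motif TGANTCA was present in 7 of the 11 cluster promoters, belonging to Mmp1b, Mmp3, Mmp7, Mmp10, Mmp12, Mmp13 and Mmp20. It was in 0 of the 27 other promoters that were matched and in 6.75% of all promoters, and the unmatched members could not be read. The letters TATAAA, sought on both strands, were in 6 of the 11 (54.5%), in 3 of the 27 and in 12.4% of all. These are matches of letters in short windows and say nothing of which factor binds there.

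**Figure D1:**
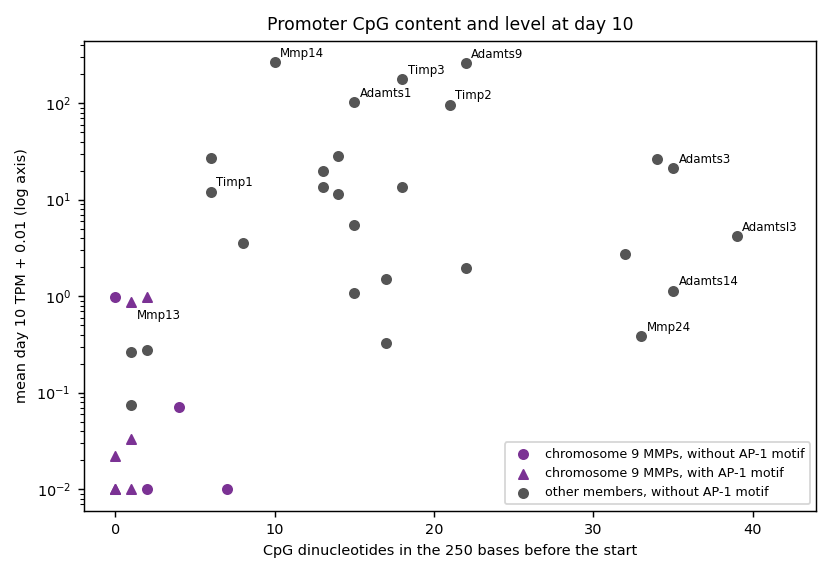
CpG dinucleotides in the 250 bases before the RefSeq start (x axis) against mean level at day 10 in transcripts per 1000000 (TPM, which accounts for transcript length) plus 0.01 on a log axis (y axis), with 1 point per promoter of 35 members, so that a gene with several starts appears more than once. Promoters of the chromosome 9 cluster (purple, triangles with the AP-1 motif) hold 0 to 7 CpG and lie at or below about 1 TPM. Most other members (grey) lie further right and higher, apart from Adamts13, Mmp21 and Timp4 with 1 or 2 CpG. Mmp24 (33 CpG, 0.373 TPM) and Mmp25 (17 CpG, 0.316 TPM) lie further right but lower than Mmp12 and Mmp13. Mmp28 (15 CpG, 1.07 TPM) and Adamts14 (35 CpG, 1.13 TPM) lie only slightly above those 2 genes.

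Each library held 11242568 to 15808039 estimated counts at day 0 and 13525255 to 17843651 at day 10. Values are given as counts per 1000000 (CPM), scaled between libraries by TMM, for changes of a gene, and as TPM for comparing genes. The labelled stem cells carried their markers: 5 pluripotency genes summed to 1787 to 2115 CPM at day 0 and to 6.26 to 9.20 at day 10. The day 10 label names no cell type. At day 10, markers of fibroblasts summed to 5139 to 8901 CPM (117 to 133 at day 0), of endothelium to 481 to 596 (40.3 to 44.2), of cardiomyocytes to 287 to 509 (3.20 to 4.79) and of macrophages to 55.8 to 124 (3.67 to 4.55). In such bulk RNA fewer cells of a type and less RNA per cell cannot be told apart.

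Library 2 of day 10 stood apart from the other 3. It had the lowest fibroblast marker sum (5139 CPM against 7259 to 8901), the highest visceral endoderm sum (1213 against 368 to 730) and the highest neural sum (161 against 39.9 to 53.4). It was the lowest day 10 library for 27 of the 39 tested members, against 30.4% of all tested genes, and the highest for 6 members. The part of this difference in the results was not tested, and the counts of members are given with and without this library.

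Most members were higher in differentiated cells. Of the 50, 39 had enough counts to be tested, and 32 of them were higher at day 10, 5 were lower (Mmp11, Mmp17, Mmp25, Adamts14 and Timp1) and 2 did not pass (Mmp24 and Adamtsl4). A gene was called at an adjusted p under 0.05 in edgeR's quasi-likelihood test over all 15097 tested genes, of which 82.1% were called, 42.7% higher and 39.4% lower. Against a change of over 2-fold, 28 members were higher and 2 lower (Mmp25 and Adamts14), with 24.1% and 17.3% of all genes as background. The median log2 change of the tested members was 3.48, also with the 2 genes that were at 0 on day 0 set to their lower bound, and that of all tested genes was 0.06. Without library 2 of day 10, 31 members were higher and 5 lower, and 28 and 2 passed the 2-fold test.

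The filter on low counts bears on these numbers. Of the 39 tested members, 16 reached it only through the day 10 libraries, so the filter favoured genes that were higher then. These were Mmp9, Mmp13, Mmp16, Mmp19, Mmp28, Adamts2, Adamts3, Adamts5, Adamts12, Adamts16, Adamts17, Adamts18, Adamts20, Adamtsl2, Adamtsl3 and Adamtsl4. Among the 21 that reached the filter in every day 0 library, 16 were higher and 5 lower, with 14 and 2 past 2-fold. The share of all genes under this same condition was not computed, so these counts have no background to be read against. By class, the median log2 change was 2.70 for 13 tested MMPs (9 higher, 3 lower), 5.22 for 18 ADAMTS proteases (17 higher, 1 lower), 3.53 for 5 ADAMTSL proteins (4 higher) and 1.90 for 3 TIMPs (2 higher, 1 lower). The CPM of the 2 days did not overlap for 34 of the 39, against 77.9% of all tested genes.

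**Figure D2:**
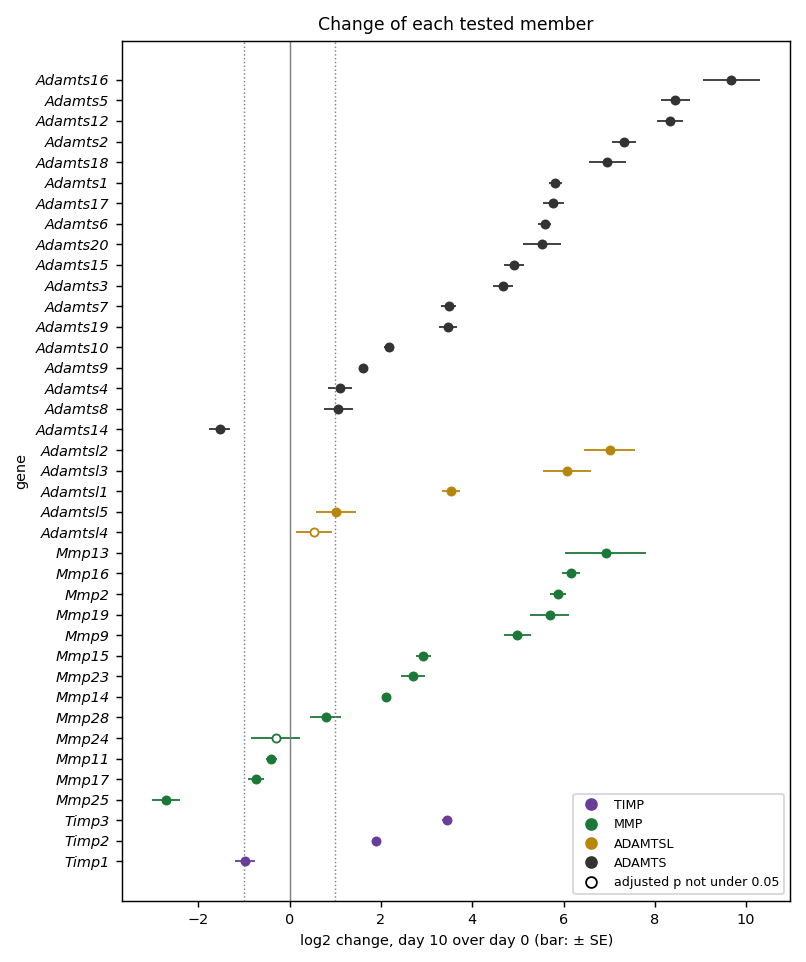
Log2 change from day 0 to day 10 (x axis) of each tested member (y axis), with the standard error as a bar, coloured by class. Filled points passed an adjusted p of 0.05 and the 2 open points, Mmp24 and Adamtsl4, did not. Dotted lines mark a 2-fold change, and the 5 lower members lie left of 0.

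The inhibitors split. Timp3, the inhibitor that stays bound to the matrix, rose most, Timp2 rose less, and Timp1 fell. In the day 0 libraries Timp3 stood at 30.4, 38.4, 31.3 and 40.5 CPM, and in the day 10 libraries at 376, 375, 430 and 352. All 4 day 10 libraries were well above every day 0 library, and the log2 change was 3.44 ± 0.10 (SE; edgeR adjusted p = 2.71e-12). Timp2, which both inhibits Mmp2 and helps Mmp14 to activate its precursor, went from 23.7, 22.1, 21.9 and 27.1 CPM to 91.0, 73.6, 92.5 and 97.4. Here too the days did not overlap (log2 change 1.90 ± 0.10, edgeR adjusted p = 4.58e-10).

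Timp1, known as an inducible inhibitor and as a partner of the Mmp9 precursor, was at 7.56, 6.55, 8.84 and 8.77 CPM at day 0 and at 5.74, 3.95, 2.99 and 3.42 at day 10. Every day 10 library was below every day 0 library, by a log2 change of -0.98 ± 0.21 (edgeR adjusted p = 6.59e-04). This fall was lost when the relation of change to transcript length was removed over all genes (-0.18, edgeR adjusted p = 0.560). Timp4 had 25 counts in all at day 0 and 34 at day 10 and was not tested.

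Timp1, Timp3 and Timp4 lie inside the synapsin genes Syn1, Syn3 and Syn2, on the opposite strand. Without a statement that reads were counted by strand, reads where exons overlap cannot be assigned: GENCODE M21 gives 0 overlapping exon pairs for Timp1, 1 for Timp3 and 6 for Timp4. Syn1 fell from 3.36 ± 0.639 to 1.25 ± 0.492 CPM (SD, n = 4), with a log2 change of -1.42 ± 0.30 (edgeR adjusted p = 5.46e-04). Syn3 rose from 1.96 ± 0.187 to 3.54 ± 1.76 CPM (log2 change 0.86 ± 0.33, edgeR adjusted p = 0.0270).

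As a share of the summed TPM of all TIMPs, Timp1 went from 36.9% ± 3.54 (SD, n = 4) to 4.30% ± 1.46 and Timp3 from 24.4% ± 4.95 to 62.0% ± 4.82. Timp2 kept a similar part, at 37.9% ± 6.60 and 33.6% ± 5.26. Timp3 thus had the smallest share of these 3 at day 0 and the largest at day 10.

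Both gelatinases rose from a low level. Mmp2 and Mmp9 cut denatured collagen and the type IV collagen of basement membranes. Mmp2 was at 4.33, 4.39, 5.14 and 5.76 CPM in the day 0 libraries and at 356, 218, 291 and 296 in those of day 10. The lowest day 10 value was that of library 2, and it was still far above day 0 (log2 change 5.87 ± 0.17, edgeR adjusted p = 7.99e-11). Mmp9, in the embryo typical of invasive and bone marrow derived cells, went from 1.01, 0.418, 0.337 and 0.393 CPM to 15.3, 13.8, 23.2 and 14.7. Its change was 4.98 ± 0.30 on the log2 scale (edgeR adjusted p = 1.69e-09), and its mean level at day 10 was 20.4 ± 5.45 TPM (SD, n = 4) against 215 ± 37.7 TPM for Mmp2. In transcripts classed as protein-coding alone, Mmp9 was at 9.85 ± 2.35 TPM and Mmp2 at 207 ± 37.0, so the gap was wider. Macrophage markers, whose cells commonly make Mmp9, were also higher at day 10 (8 of 9, against 42.7% of all tested genes). Their sums in the day 10 libraries, in the same library order, were 124, 55.8, 107 and 124 CPM. The part of these cells in the Mmp9 result was not tested.

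Of the 6 membrane-type MMPs, 3 rose and 2 fell, not far from the 42.7% higher and 39.4% lower among all tested genes. Of the 4 with a transmembrane helix, Mmp14, Mmp15 and Mmp16 rose and Mmp24 did not pass, and both with a GPI lipid anchor, Mmp17 and Mmp25, fell; a difference between the anchors was not tested. Mmp14, the surface collagenase that activates the Mmp2 precursor, was at 46.4, 47.2, 46.9 and 46.1 CPM at day 0 and at 233, 168, 204 and 200 at day 10. The day 0 libraries agreed closely, and the log2 change was 2.11 ± 0.09 (edgeR adjusted p = 3.97e-11). Mmp16, a relative that can also activate the Mmp2 precursor, went from 0.922, 1.39, 0.674 and 0.851 CPM to 88.7, 57.2, 64.6 and 70. It thus moved from near the detection cut to a place behind only Mmp14 and Mmp2 among the MMPs at day 10 per length, with a log2 change of 6.16 ± 0.20 (edgeR adjusted p = 1.18e-11). Mmp15 rose from 3.43 ± 0.839 to 26.3 ± 2.47 CPM (SD, n = 4), by 2.93 ± 0.16 on the log2 scale. Mmp24, known from the nervous system, was at 0.944 ± 0.452 and 0.746 ± 0.517 CPM, a difference within the spread (log2 change -0.31 ± 0.53, edgeR adjusted p = 0.600), whose sign was positive on the TPM scale.

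The GPI-anchored pair was low on both days. Mmp25, also called leukolysin, was at 5.62, 3.62, 4.04 and 2.75 CPM at day 0 and at 0.589, 0.556, 0.730 and 0.560 at day 10. The days did not overlap, and with a log2 change of -2.70 ± 0.31 (edgeR adjusted p = 1.51e-06) it was the member that fell most. Mmp17 went from 9.03, 7.59, 6.32 and 7.72 CPM to 4.19, 5.37, 4.53 and 4.32, a log2 change of -0.73 ± 0.17 (edgeR adjusted p = 0.00123). Its call was lost when the mean effective transcript length served as offset (-0.37, edgeR adjusted p = 0.255) and on the TPM scale, where it had 1.86 ± 0.317 TPM at day 0 and 1.66 ± 0.514 at day 10.

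The 9 members in the chromosome 9 cluster were nearly silent, apart from traces at day 10. They include the collagenases Mmp13 and Mmp8, the stromelysins Mmp3 and Mmp10, matrilysin (Mmp7), macrophage elastase (Mmp12) and the tooth enamel protease Mmp20. Mmp1b, Mmp7, Mmp10 and Mmp27 had 0 counts in all 8 libraries, which allows a level of up to 0.0573 CPM over the day 0 libraries and 0.0489 over those of day 10 (3 counts, for counting error only). Mmp3 had 1 count in all, Mmp8 had 4, all at day 10, and Mmp20 had 4 at day 0 and 1 at day 10. Transcripts of Mmp13, the main collagenase of bone and cartilage, numbered 0 at day 0 and 66 at day 10, at 0.957, 0.988, 0.730 and 1.51 CPM. It was the cluster's only tested gene and differed by at least 18.8-fold (higher), taking 3 counts over the day 0 libraries as the floor (edgeR adjusted p = 2.12e-05). Mmp12 had 3 counts at day 0 and 37 at day 10, a ratio of 10.5 with an exact 95% counting interval of 3.33 to 53.4, and did not reach the filter.

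The remaining MMPs moved in both directions. Mmp11, a secreted MMP that furin activates inside the cell, was at 21.2, 20.3, 20.5 and 20.4 CPM at day 0 and at 18.8, 13.2, 14.5 and 16.0 at day 10. All 4 day 10 libraries were lower, by a small log2 change of -0.40 ± 0.12 (edgeR adjusted p = 0.00627). This direction turned when the length trend was removed (0.22, edgeR adjusted p = 0.321), and the call was lost in counts of protein-coding transcripts alone (-0.27, edgeR adjusted p = 0.0742). Mmp19 rose from 5 to 331 counts in all (log2 change 5.69 ± 0.43), and Mmp23, which lacks the hemopexin domain, from 1.04 ± 0.119 to 6.77 ± 1.73 CPM (2.70 ± 0.26). Mmp28, or epilysin, passed narrowly (log2 change 0.79 ± 0.34, edgeR adjusted p = 0.0454), with overlapping days and a call lost in 10 of 17 alternatives, among them leaving out any library but library 3 of day 0 or library 4 of day 10. Mmp21, known for its role in left-right asymmetry, had 2 counts at day 0 and 4 at day 10.

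**Figure D3:**
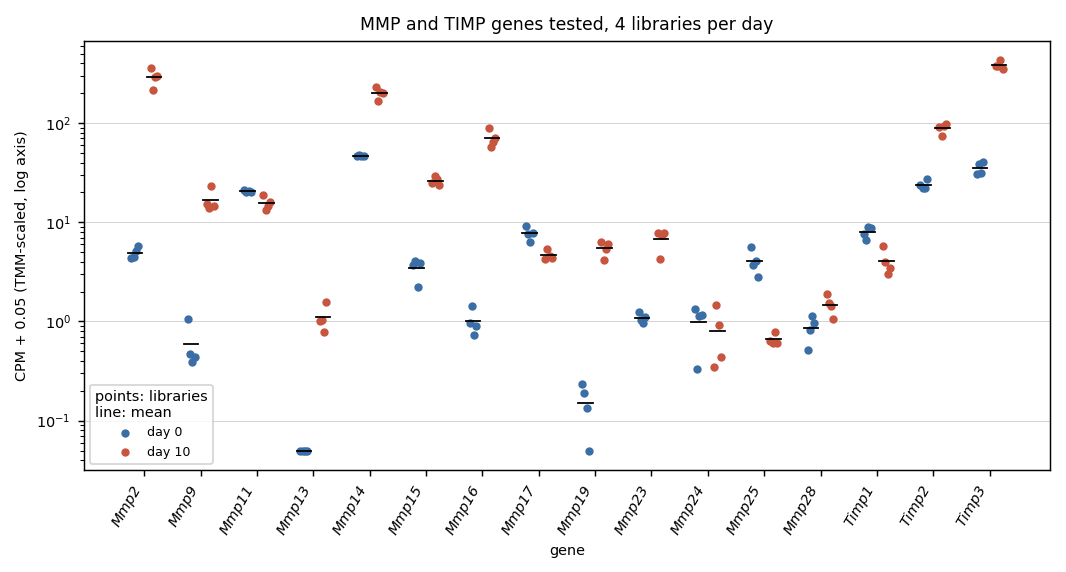
TMM-scaled CPM plus 0.05 on a log axis (y axis) of each tested MMP and TIMP gene (x axis), with 1 point per library (day 0 blue, day 10 red) and a line at the mean. Mmp13 has all 4 day 0 points at the bottom, where CPM is 0, and Mmp11, Mmp17, Mmp25 and Timp1 are the MMPs and TIMP with all red points below the blue ones.

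The procollagen N-proteinases changed places. Adamts2, Adamts3 and Adamts14 remove the amino-terminal propeptide of fibrillar procollagens, and Adamts3 also processes the lymphatic growth factor VEGF-C. Adamts2 rose from 0.645, 0.627, 0.421 and 0.393 CPM to 111, 60.3, 83.4 and 81.7 (log2 change 7.32 ± 0.26, edgeR adjusted p = 2.30e-10). Adamts3 rose from 0.645, 1.53, 1.26 and 1.64 CPM to 41.7, 26.3, 35.4 and 31.0 (4.67 ± 0.22, edgeR adjusted p = 1.95e-10). Adamts14, in contrast, fell from 11.0, 7.73, 7.49 and 5.96 CPM to 2.50, 3.46, 2.78 and 2.30. It was the only tested ADAMTS protease that was lower, by a log2 change of -1.53 ± 0.22 (edgeR adjusted p = 1.85e-05). At day 0 it was the highest of the 3 per length, at 2.62 ± 0.880 TPM (SD, n = 4), and at day 10 the lowest, at 1.13 ± 0.236 against 26.4 ± 5.88 for Adamts2 and 21.3 ± 3.73 for Adamts3. The 7 fibrillar collagen genes, whose products are the substrates, all rose, from Col2a1 (log2 change 4.64 ± 0.26) to Col3a1 (12.09 ± 0.29).

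All 7 aggrecanases and versicanases rose, over a wide range of sizes, and 5 passed the 2-fold test. Of all tested genes 42.7% were higher, and 24.1% were higher past 2-fold. These proteases (Adamts1, 4, 5, 8, 9, 15 and 20) cut aggrecan, versican or both. Adamts5 and Adamts20 reached the filter only through the day 10 libraries. Adamts5, the main aggrecanase of mouse cartilage, went from 0.184, 0.0696, 0.168 and 0.458 CPM to 104, 58.5, 85.4 and 84.7. That is 12 counts in all at day 0 against 5045 at day 10 (log2 change 8.45 ± 0.32, edgeR adjusted p = 5.33e-10). Adamts1 went from 4.24, 3.34, 4.55 and 3.93 CPM to 262, 187, 208 and 244 (5.82 ± 0.14, edgeR adjusted p = 6.82e-13). Adamts15 went from 2.67, 5.08, 2.61 and 3.60 CPM to 137, 80.8, 101 and 112 (4.91 ± 0.23, edgeR adjusted p = 9.72e-09). For each of these 3 genes library 2 was the lowest of day 10 and library 1 the highest, and none of the day 10 values came near those of day 0.

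Adamts9, which is secreted early in development and cuts versican, differed from them in being high already in stem cells. It was at 257, 302, 248 and 273 CPM at day 0 and at 780, 854, 877 and 783 at day 10, a log2 change of 1.61 ± 0.07 (edgeR adjusted p = 8.85e-11). Adamts20, its closest relative in sequence and known for coat colour, had 8 counts in all at day 0 and rose by 5.53 ± 0.42 on the log2 scale, with its highest value in library 2 (10.5 CPM). Adamts4 (log2 change 1.11 ± 0.27, edgeR adjusted p = 0.00150) and Adamts8 (1.07 ± 0.32, edgeR adjusted p = 0.00712) rose without passing the 2-fold test. The days of Adamts8 overlapped. Among the substrates, versican (Vcan) rose by 4.81 ± 0.09 and the link protein Hapln1 by 9.75 ± 0.25, while aggrecan (Acan) fell by 4.54 and the brain link protein Hapln4 by 2.38 on the log2 scale. Of the 8 hyalectan and link protein genes 5 were tested, and Ncan did not pass.

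Adamts7 and Adamts12, which cut cartilage oligomeric matrix protein, both rose. Adamts12 went from 0, 0.488, 0.337 and 0.196 CPM to 107, 68.6, 89.5 and 91.3 (log2 change 8.33 ± 0.28, edgeR adjusted p = 1.35e-10). Adamts7 rose from 2.67 ± 0.571 to 29.9 ± 4.63 CPM (SD, n = 4; 3.48 ± 0.17 on the log2 scale).

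The other 3 pairs of related ADAMTS proteases rose with all 6 members, while 42.7% of all tested genes were higher. Adamts16, Adamts17 and Adamts18 among them reached the filter only through the day 10 libraries. None of the 6 had overlapping days, which held for 77.9% of all tested genes. Adamts10 and Adamts6 are linked to fibrillin microfibrils. Adamts10 was already at 20.5 ± 2.20 CPM at day 0 and reached 92.3 ± 10.6 (log2 change 2.17 ± 0.10), and Adamts6 went from 1.85 ± 0.430 to 88.9 ± 9.79 (5.59 ± 0.15). Adamts16, a gene known from kidney and gonad, had 0 counts in the day 0 libraries and stood at 8.90, 4.63, 8.18 and 7.17 CPM at day 10. With 3 counts over the day 0 libraries as the floor it was at least 124-fold higher (edgeR adjusted p = 5.34e-08). Its relative Adamts18 went from 4 counts in all to 647 (6.96 ± 0.40). Adamts17, whose human gene is mutated in a short-stature syndrome of the Weill-Marchesani type, rose by 5.77 ± 0.23 and Adamts19 by 3.47 ± 0.20. Adamts13, the liver-made protease of von Willebrand factor, had 0 counts at day 0 and 16 at day 10, which makes it at least 4.55-fold higher, and did not reach the filter.

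**Figure D4:**
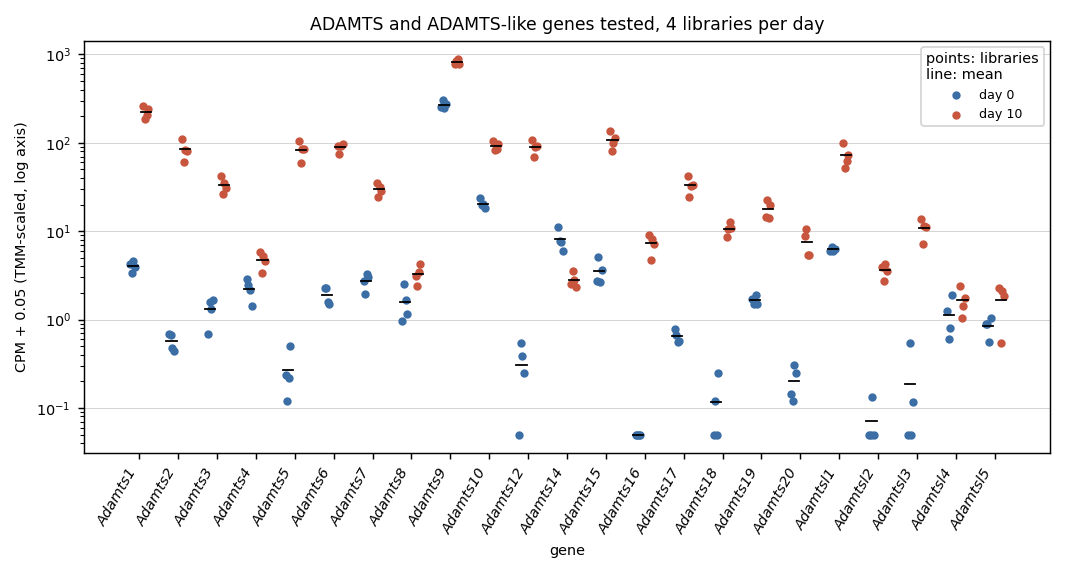
TMM-scaled CPM plus 0.05 on a log axis (y axis) of each tested ADAMTS and ADAMTSL gene (x axis), with 1 point per library (day 0 blue, day 10 red) and a line at the mean. Adamts14 is the gene whose red points lie below the blue ones, Adamts9 is high on both days, and Adamts16 has all 4 day 0 points at the bottom, where CPM is 0.

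Of the 5 ADAMTSL genes, which encode matrix proteins without a protease, 3 rose strongly. Adamtsl1 (punctin) went from 5.90, 6.62, 5.98 and 6.22 CPM to 99.9, 51.9, 62.3 and 73.5 (log2 change 3.53 ± 0.20, edgeR adjusted p = 2.05e-08). Adamtsl3 went from 0, 0.488, 0 and 0.0655 CPM to 13.8, 7.16, 11.3 and 11.2 (6.08 ± 0.52, edgeR adjusted p = 3.41e-07). Adamtsl2, which binds fibrillin and latent TGF-beta binding proteins, had 1 count at day 0 and 218 at day 10, a ratio of 186 with an exact 95% counting interval of 33.1 to 7386. Adamtsl5 passed narrowly (1.02 ± 0.43, edgeR adjusted p = 0.0413) and lost its call in 11 of 16 alternatives, among them leaving out any library but library 2 of day 10. Adamtsl4, linked to the suspension of the eye lens, was at 1.09 ± 0.565 and 1.60 ± 0.576 CPM (SD, n = 4), which did not pass (0.54 ± 0.40, edgeR adjusted p = 0.223). Beside them, Thsd4 and Papln, related proteins without the symbol, rose by 8.56 ± 0.22 and 3.15 ± 0.47 on the log2 scale. Among their fibrillin and latent TGF-beta binding partners 5 of 6 rose, led by Fbn2 (7.45 ± 0.12), and Ltbp4 fell by 0.39.

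Compared per length, the order of the genes changed between the days. At day 0 the highest members were Adamts9 at 71.3 ± 7.28 TPM, Mmp14 at 41.9 ± 5.48 and Mmp11 at 37.6 ± 5.33 (SD, n = 4), followed by Timp2 at 19.1 ± 5.18, Adamts10 at 18.6 ± 2.18 and Timp1 at 18.3 ± 1.63. Adamts9 stood clear of the rest, whereas Mmp14 and Mmp11, and the 3 genes after them, did not differ beyond their spread. At day 10 the order began with Mmp14 at 266 ± 24.5, Adamts9 at 261 ± 33.8, Mmp2 at 215 ± 37.7 and Timp3 at 177 ± 16.5. Mmp14 and Adamts9 were within their spread, and Adamts10 (119.3 ± 15.1) and Adamts1 (102 ± 13.4) came after Timp3. Mmp11 held 41.2% ± 3.05 of the summed MMP TPM at day 0 and 4.66% ± 0.837 at day 10, while Mmp2 went from 3.26% ± 1.11 to 34.9% ± 2.73. Of the Mmp11 level at day 0, 23.2 ± 5.07 TPM was on Mmp11-203, a nonsense-mediated decay transcript of 335 bases. Within the ADAMTS proteases, Adamts9 went from 71.2% ± 3.33 to 37.3% ± 5.80.

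Summed over each class, TPM was higher in every day 10 library. The MMPs went from 91.0 ± 9.33 to 612 ± 72.1 TPM (SD, n = 4; 6.72-fold), the ADAMTS proteases from 100 ± 8.08 to 703 ± 33.4 (7.03-fold), the ADAMTSL proteins from 9.86 ± 0.761 to 71.9 ± 19.4 (7.29-fold) and the TIMPs from 49.8 ± 5.55 to 285 ± 14.8 (5.73-fold). The factors depended on what was summed: in the order MMP, ADAMTS, ADAMTSL and TIMP they were 9.04, 9.01, 12.6 and 5.58 in protein-coding transcripts and 6.99, 5.47, 10.9 and 7.09 in CPM. The ratio of summed MMP to summed TIMP TPM was 1.76, 2.39, 1.76 and 1.52 at day 0 and 2.57, 1.93, 2.02 and 2.08 at day 10, so the days overlapped. In protein-coding transcripts alone it was 0.932, 1.18, 0.954 and 0.873 against 1.92, 1.37, 1.49 and 1.56, with no overlap. In CPM, with no account of length, the ratio was 1.38 ± 0.150 against 1.35 ± 0.206. How far MMP transcripts gained on those of their inhibitors thus depended on which transcripts were counted, and no test was run on these sums.

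**Figure D5:**
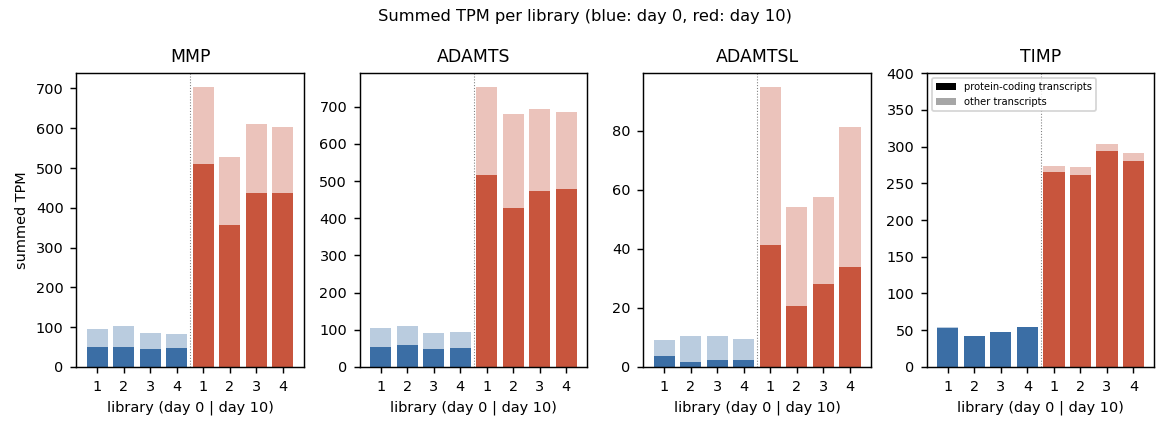
Summed TPM (y axis) of the MMP, ADAMTS, ADAMTSL and TIMP genes in each of the 8 libraries (x axis), with day 0 in blue and day 10 in red, and protein-coding transcripts in full colour below other transcripts in pale colour. All 4 classes are higher in every day 10 library, and the pale part is large for ADAMTSL, ADAMTS and MMP and small for TIMP.

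Part of these levels came from transcripts that GENCODE M21 does not class as protein-coding, which total RNA libraries also capture. At day 10 protein-coding transcripts held 50.8% ± 2.85 of the TPM of Mmp14 (SD, n = 4), and the retained-intron transcript Mmp14-207, 779 bases long, alone had 126 ± 10.1 TPM beside 132 ± 17.3 for the full-length coding transcript Mmp14-201. In counts the coding share of Mmp14 was 80.3% ± 1.88, since the short transcript weighs more per length. Adamts10 and Adamts6 had only 25.3% ± 3.14 and 19.0% ± 5.19 of their day 10 counts on coding transcripts, Adamtsl5 had 0%, and Timp1 and Timp2 had 100%. In coding transcripts alone, the order at day 0 was Adamts9 at 39.9 ± 4.33 TPM, Mmp14 at 26.05 ± 1.31, Timp2 at 19.1 ± 5.18, Timp1 at 18.3 ± 1.63 and Mmp11 at 13.7 ± 0.335. At day 10 it was Mmp2 at 207 ± 37.0 TPM, Adamts9 at 191 ± 8.62, Timp3 at 167 ± 16.7 and Mmp14 at 136 ± 17.3.

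Use of the leading transcript was a measure that played no part in choosing the genes, and it was tested in the 12 members with several transcripts and at least 1 TPM in every library. None passed after adjustment, and 4 reached 0.0286, the smallest p of the two-sided exact permutation test over 70 assignments (adjusted p = 0.0857). As no smaller p was possible, a gene could not pass alone over 12 members, so the test cannot decide on a shift in a single gene. In Adamts9 the coding transcript Adamts9-201 held 54.5, 56.5, 55.9 and 57.2% of the gene's TPM at day 0 and 75.8, 64.7, 73.0 and 81.0% at day 10. In Mmp23 the share of Mmp23-201 was 33.3% ± 21.7 (SD, n = 4) and 64.1% ± 5.25. Its day 0 share rests on few counts, as the whole gene had 13, 14, 11 and 16 in those libraries. In Mmp14 the share of Mmp14-201 was 60.9% ± 8.03 and 49.5% ± 2.83. The shares of Adamtsl1-206, a retained-intron transcript, were 60.3% ± 11.0 and 39.7% ± 4.67. The days did not overlap in these 4 genes, which restates that they reached the smallest p, and for the other 8 the permutation p was larger. How often such shares do not overlap over all genes was not computed.

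Genes that activate or restrain these proteases were followed in lists of known pathway members. No set test was run on the lists, and of all tested genes 42.7% were higher and 39.4% lower. Of the plasminogen activator system, whose protease plasmin activates several MMPs, 7 of 8 rose and the urokinase receptor Plaur fell (log2 change -0.84 ± 0.19). Plasminogen itself (Plg) had 0 counts at day 0 and 260 at day 10, where the libraries stood at 1.47, 1.79, 3.43 and 9.19 CPM. Without library 4, the highest, 96 counts and a mean of 2.23 CPM were left in place of 3.97. Of the proprotein convertases, which remove the propeptide of membrane-type MMPs and ADAMTS proteases, 3 of 4 rose, led by Pcsk5 (4.74 ± 0.15), and Pcsk6 fell by 3.18. Of 9 other inhibitors and binding proteins 7 were tested, with 4 higher, led by the proteoglycan Spock3 (3.36 ± 0.51), and 2 lower, of which the procollagen enhancer Pcolce2 fell by 3.53.

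The AP-1 and ETS transcription factors, of which Fos and Jun bind the motif shown above, rose in 8 of the 9 tested genes of 10, and Etv4 fell (log2 change -3.62 ± 0.14). Fosb rose most, from 0.152 ± 0.0558 to 664 ± 61.8 CPM (SD, n = 4), by 12.00 ± 0.15 on the log2 scale. Of the 9 cluster members, 8 stayed under the filter, and a link between these factors and the cluster was not tested. Surface partners and clearance receptors rose in 5 of 6 genes, led by the collagen receptor Ddr2 (5.83 ± 0.14), and the MMP inducer Bsg fell by 0.56.

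Of 9 genes for ADAM proteases, membrane relatives that shed surface proteins, 8 were tested and 7 rose, from Adam19 (0.34 ± 0.09) to Adam12 (9.88 ± 0.28). Astacin proteases were tested in 3 of 5 genes: Bmp1 and Tll1 (4.65 ± 0.23), which remove the carboxy-terminal propeptide of procollagens, rose, and the meprin Mep1b went from 152 counts to 0. The thrombospondins and von Willebrand factor rose in all 5 genes, led by Thbs1 (4.92 ± 0.12) with Thbs3 the least (1.86 ± 0.15). The basement membrane genes were mixed, with 7 of 11 higher, led by Lama2 (6.64 ± 0.37), and 3 lower, of which Lama1 fell by 1.03. Lama1 and Acan are also on the lists of parietal endoderm and cartilage markers, and Col1a1, Col3a1 and Col2a1 on those of fibroblasts and cartilage. All 6 fibroblast markers rose, as all 5 tested cardiomyocyte and all 6 endothelial ones did, and the part of each cell type in the levels of the proteases was not tested.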

How the data were processed

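Gene levels were taken from 8 kallisto abundance tables, whose estimated counts and TPM per transcript were deposited by the authors; the submitters' processing notes name kallisto (version given as 1) and DESeq2, while for genome build and transcript reference: not given in the sources used here. Per the labels, RNA was extracted with TRI Reagent and libraries were made with a SMART-Seq total RNA kit after ribosomal RNA removal. Transcripts were joined to GENCODE M21 without version (117992 of 126126, or 93.6%; the rest held 1.15 to 1.23% of counts), and estimated counts and TPM were summed per gene. Sums were rounded and fitted in edgeR 4.0.16 (filterByExpr, TMM, robust quasi-likelihood test, glmTreat for 2-fold; R 4.3.3) over all genes, with Benjamini-Hochberg adjustment and no covariates. The spread between libraries had a biological coefficient of variation of 10.4% (day 0) or 14.4% (day 10). Fits were tested on simulated data in which only a small part of the genes changed. In the real data 82.1% of tested genes were called, so the simulation does not cover scaling or error control in that setting. Alternatives were DESeq2 1.42.0, limma 3.58.1 on log2 TPM plus 1 or 0.1, upper quartile scaling, no filter, length corrections, a replicate block and leaving out each library. Counting transcripts classed as protein-coding alone was chosen after seeing the data. Floors are 3 counts over a group and, like the intervals, reflect counting error alone. The named genes are all members and, from each pathway list, the called genes with the highest and lowest log2 change; the substrates Vcan and Hapln4, Ncan and Bmp1 were named after their values were seen. The members and lists were chosen with earlier results of these data known. Promoters are RefSeq's, on GRCm38.p6. Figures used matplotlib 3.10.9.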

Additional observations from a re-analysis of the deposited data

Results flagged for a closer look

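Within a day, a library was set apart where its gap to the nearest of the other 3, over the group's range, exceeded Dixon's 95% critical value, which chance does in about 1 of 20 groups. Of the 76 groups formed by 39 tested members on 2 days whose values were not all equal, 5 met it. Mmp9 met it on both days: library 1 of day 0 was at 1.01 CPM while the other 3 lay at 0.337 to 0.418, and library 3 of day 10 at 23.2 CPM against 13.8 to 15.3. Mmp23 was low in library 2 of day 10, at 4.20 CPM against 7.38 to 7.79, in the library that was the lowest for 27 members. Adamtsl2 was at 0.0842 CPM in library 3 of day 0, which is 1 count, with 0 in the other 3 libraries. Adamtsl3 was at 0.488 CPM in library 2 of day 0 against 0 to 0.0655.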

How the results depend on the processing

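Of 662 values of single members under the alternatives, 630 kept their direction and side of the threshold. The number of members lower at day 10 was 5, and 3 with the length trend removed. The number past 2-fold lower was 2, and 1 with effective transcript length as an offset, 1 with DESeq2, 1 on log2(TPM + 0.1) and 0 on log2(TPM + 1). Mmp11 reversed to 0.22 with the length trend removed, and Mmp24 to 0.0190 and 0.0198 on log2 of TPM plus 1 and plus 0.1. The tested members had a median transcript length of 4165 bases against 2351 for all tested protein-coding genes. The median log2 change of all tested genes was 0.06, and 0.25 with effective length as an offset, 0.15 with the length trend removed, 0.27 with no filter, 0.40 on log2(TPM + 1) and 0.45 on log2(TPM + 0.1). The log2 ratio of summed levels moved for the MMPs from 2.75 to 3.18 in coding transcripts, for the ADAMTS proteases from 2.81 to 2.45 in CPM and 3.17 in coding transcripts, for the ADAMTSL proteins from 2.87 to 3.45 in CPM and 3.66 in coding transcripts, and for the TIMPs from 2.52 to 2.83 in CPM. The cause of these shifts was not tested. Deviations of same-numbered libraries correlated only weakly (0.0301, 0.0494, 0.0405 and 0.0328). Each day 0 library still correlated best with its own number, so a weak pairing cannot be told from none. With the replicate block 30 members were higher and 5 lower, and 28 and 2 passed 2-fold, with 6403 and 5895 of all genes higher and lower. Depth limits the cluster on chromosome 9, where 8 of 9 genes had too few counts to be tested.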
